A study of Mus musculus with 24 samples.

Results

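SmcHD1-mutant (KO) cells were compared between day 7 and day 9 of neural differentiation, outside the X and Y chromosomes. Members of the comparison were all genes whose listed position lies off X and Y and whose mean FPKM (fragments per kilobase, relative to the library's mapped fragments) over the 6 KO libraries of these days was at least 1. Of 23119 genes listed, 22095 lay outside X and Y, 11668 met the rule, and 11667 were tested because 1 had a failed estimate. All cells derive from JB4/EI7HZ2, a female mouse embryonic stem cell (mESC) line from a cross of a JF1 female and a B6 male. The line carries CAGzeo on the JF1 X and IRESneo on the B6 X, and both genotypes were kept under G418 and zeocin as mESCs. The groups used were SmcHD1-KO JB4/EI7HZ2 cells at day 7 and at day 9, made by CRISPR–Cas9 with a guide against the ATPase domain, and the WT parent line at the same days, with 3 replicates in each. The study describes these replicates as biologically independent experiments. Both genotypes are 1 line each, so the mutation and other differences of line cannot be told apart. The study uses day 7 and day 9 cells as a stage during X inactivation, and the comparison described here asks which other genes changed between those days in the mutant.

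SmcHD1 is a chromatin protein of the SMC family that acts in X inactivation and at some imprinted clusters. Neural differentiation of mESCs passes from a pluripotent epiblast-like state, held by factors such as Oct4 (Pou5f1), to neurectoderm, a dividing epithelium whose cells express Sox1, Nes and Pax6. Proneural basic helix-loop-helix (bHLH) factors then push some cells out of division towards neurons, and Notch signalling holds back their neighbours. Cells of the neural tube also take a position: Wnt and BMP signals from the roof pattern the dorsal side, Shh from the floor plate patterns the ventral side, and Hox genes mark the levels behind the midbrain.

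Smchd1, at chr17:71693834-71824683 (mm9), had 3.63, 3.95 and 3.82 FPKM in the 3 KO day 7 libraries and 3.8, 4.03 and 4.4 in the KO day 9 libraries. WT libraries held 26.4, 25 and 22.1 FPKM at day 7 and 22.3, 21.9 and 21.8 at day 9, so every KO library lay below every WT library. Its log2 change from day 7 to day 9 in KO cells was 0.08 ± 0.13, adjusted p = 0.665. Here and below a change is a log2 fold change of FPKM + 1 with its standard error from limma. A gene is called when its adjusted p is under 0.05. Levels are single libraries in the order of replicates 1 to 3 or the mean ± SD of the 3. Single libraries were also left out in turn, 6 for a KO change and 12 for a difference from WT, and the calls lost that way are named at the end of each paragraph. The fit was also run under 8 other settings (pseudocounts of 0.1 and 0.5, no filter or a mean of 5 FPKM, libraries scaled to the same sum or quantile normalized, only the libraries compared, and without trend and robust settings). Where a change or difference given in the text lost or gained its call there, this follows once for each gene. Fits with the replicate number as a block are not among the 8. The block with only the libraries compared ended KO calls of En1, Nkx6-2, T, Spink3, Dhrs3 and Pax2, among others. It also ended differences such as those of St18, Fgf8 and Bmpr1b. The block over all libraries ended the differences of Fst, Nog, Insm1 and Tdgf1. The pseudocount of 0.1 alone ended 47 of 71 named differences and 22 of 184 named KO calls.

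Sums of FPKM in the 6 KO libraries ran from 592928 to 674470, and their relative read numbers, worked out from the steps of low values, from 0.898 to 1.13 of the median library. Pearson correlations of log2 values were 0.979 to 0.987 within the 2 KO groups and 0.932 to 0.952 between them. KO day 9 replicate 2 stood apart from its partners in ventral neural genes: the 26 genes of the floor plate and ventral neural list summed to 299 FPKM there, against 130 and 180 in replicates 1 and 3. It was at least 1 log2 unit above both partners for 25 members and below both for 30, and KO day 7 replicate 1 for 24 and 36. In WT cells replicate 1 stood apart at both days, with ventral sums of 187 against 385 and 391 at day 7 and 675 against 922 and 908 at day 9. Results that rest on KO day 9 replicate 2 are given with and without it. The listed loci of Sox2, Sox1, Pax6, Nefm, Ebf3, Shh, Nkx2-2, Nkx6-2, Gli1, Phox2a, Msx1, Hoxa3, Wnt7b, Chrd, Pax2, Acvr2a, Ccnd2, Gngt2, Tcfl5, Peg3, Rian, Cd81, Cdc20 and Igf2 overlap another listed transcript. Nanog and Snrpn are listed together with Nanogpd and Snurf. Values of all these genes may hold reads of 2 transcripts.

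Between day 7 and day 9, 3742 of the 11667 tested genes (32.1%) were called in KO cells. Of these 2101 (18%) rose and 1641 (14.1%) fell, and 827 (7.09%) were called with a change of at least 1 log2 unit. The split depended on scaling: 2026 rose and 2277 fell after quantile normalization, and 2243 and 1249 with libraries scaled to the same sum. The median change over all tested genes was 0.019. As a second count with no test, libraries of the 2 days did not overlap for 3357 genes (28.8%) that were higher at day 9 and 2924 (25.1%) that were lower. At an unadjusted p under 0.05, 4938 were past the threshold in KO cells. In WT cells 3998 of the same genes (34.3%) were called, 2198 (18.8%) higher and 1800 (15.4%) lower. The KO change and the WT change differed for 212 genes (1.82%), the difference lying above 0 for 107 (0.917%) and below 0 for 105 (0.9%). The filter used KO libraries alone, so genes low in KO cells but high in WT cells were left out. List counts of differences below do not cover such genes. With no filter on low values the difference was called above 0 for 185 and below 0 for 220 of 16713 genes. Gene lists are given below with the number tested of the number listed. A gene low on 1 day could pass the filter through the other day alone, so the tested members are not the whole list, and their counts are to be read against the 18% higher and 14.1% lower over all genes. Where a list had no call in a direction, its count in that direction at an unadjusted limma p under 0.05 is given as unadjusted. The plot of KO changes against WT changes shows most genes near the line of equal changes and these 212 off it.

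**Figure D1:**
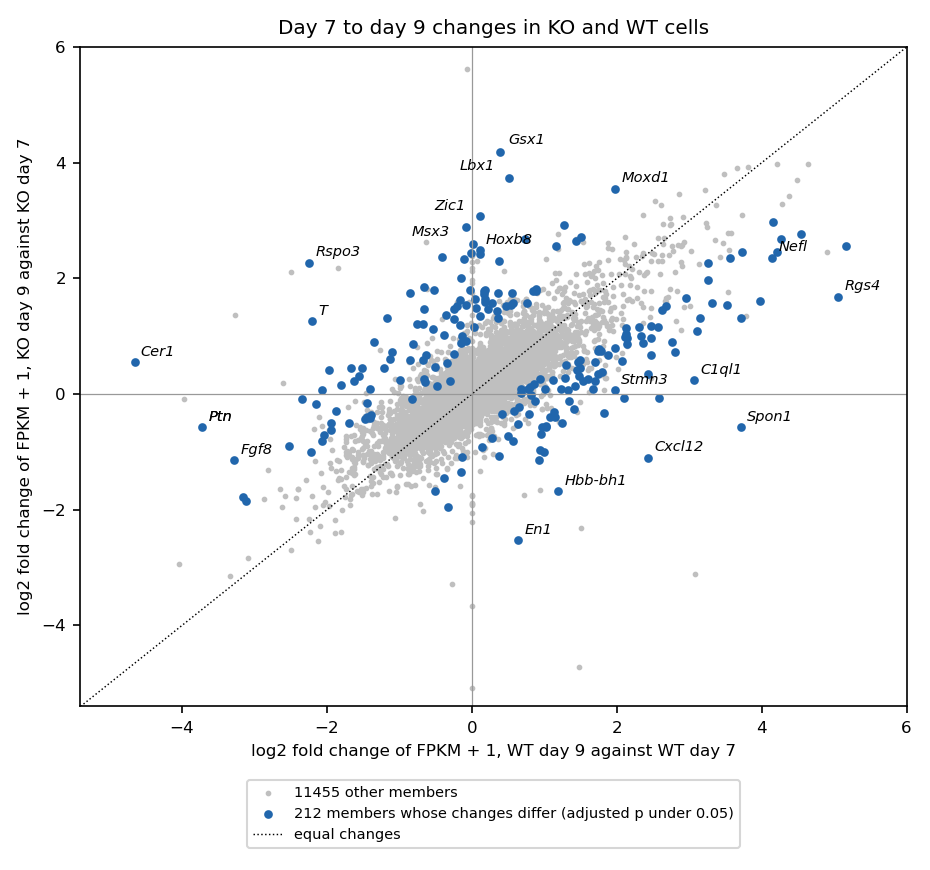
Each point is 1 of the 11667 tested genes, with its log2 change from day 7 to day 9 in WT cells on the x axis and in KO cells on the y axis (log2 fold change of FPKM + 1, 3 libraries per group). Blue points are the 212 genes whose changes differ, such as Gsx1 (0.39 in WT, 4.18 in KO) and Spon1 (3.71 in WT, -0.57 in KO).

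Pluripotency and epiblast genes fell. Of 29 tested members of that list (30 listed) 25 were called lower and none higher (unadjusted 0), with a median change of -1.15. Pou5f1, the gene of Oct4, had 284, 248 and 189.5 FPKM at day 7 and 65.2, 39.8 and 55.5 at day 9. Every day 9 library was below every day 7 library, and the change was -2.16 ± 0.21, adjusted p = 1.4e-07. Trh, which encodes thyrotropin-releasing hormone and is expressed in mESCs, went from 343, 327 and 270.3 to 44, 40.5 and 22.7 FPKM (change -3.14 ± 0.35, adjusted p = 1.43e-06). Dnmt3b, a de novo DNA methyltransferase of the early embryo, fell from 100.1, 80.4 and 60.3 to 11.8, 11.8 and 10.4 FPKM (change -2.69 ± 0.24, adjusted p = 2.54e-08). For all 3 genes the days did not overlap. The fall took in genes of the naive state, such as Zfp42 (-0.8, adjusted p = 0.00145), as well as genes of the formative epiblast, such as Fgf5 (-1.76, adjusted p = 5.93e-07). Sox2, which neural progenitors share with pluripotent cells, had a change of 0.23 (adjusted p = 0.187). In a bulk sample, fewer cells of a type and less RNA per cell cannot be told apart. Sox2 gained a KO call with only the libraries compared (0.23, adjusted p = 0.0337).

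Foxh1, Nodal, Lefty1 and Lefty2, 4 genes that act in Nodal signalling, fell. Foxh1, the forkhead partner of Smad2 and Smad3, went from 46.3, 48.6 and 39.6 to 5.71, 6.11 and 4.44 FPKM (change -2.84 ± 0.16, adjusted p = 2.53e-11). Nodal, the ligand, changed by -1.49 (adjusted p = 8.04e-07). Lefty1 and Lefty2, secreted inhibitors of Nodal, changed by -1.84 and -0.9 (adjusted p = 5.09e-07 and 0.00122). Both fell further in WT cells: Lefty1 from 41 ± 8.43 to 3.82 ± 0.665 FPKM and Lefty2 from 23 ± 6.87 to 3.07 ± 0.173. The differences between the changes were 1.27 ± 0.29, adjusted p = 0.0176 for Lefty1 and 1.63 ± 0.27, adjusted p = 0.00146 for Lefty2. Tdgf1, the Nodal co-receptor, and Tdh, the threonine dehydrogenase of mouse pluripotent cells, were the other 2 list members whose changes differed (1.22 ± 0.31, adjusted p = 0.0487 for Tdgf1 and 1.25 ± 0.24, adjusted p = 0.004 for Tdh). Without KO day 9 replicate 2 the list had 7 such differences, and without KO day 9 replicate 1 or KO day 7 replicate 3 it had 2. Lin28a, an RNA-binding protein that blocks let-7 maturation, went from 324, 316 and 309 to 94.3, 94.3 and 70.5 FPKM in KO cells (change -1.87). It changed by -2.03 in WT cells (difference 0.15 ± 0.26, adjusted p = 0.997). In WT cells 26 of the 29 were called lower and none higher (unadjusted 0), with a median of -1.86. Lefty1 and Tdgf1 lost their called differences without 4 and 9 of the 12 libraries, left out singly (adjusted p up to 0.0731 and 0.175). Lefty1, Tdgf1 and Tdh lost their called differences in 2, 6 and 1 of the other settings (adjusted p up to 0.484).

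**Figure D2:**
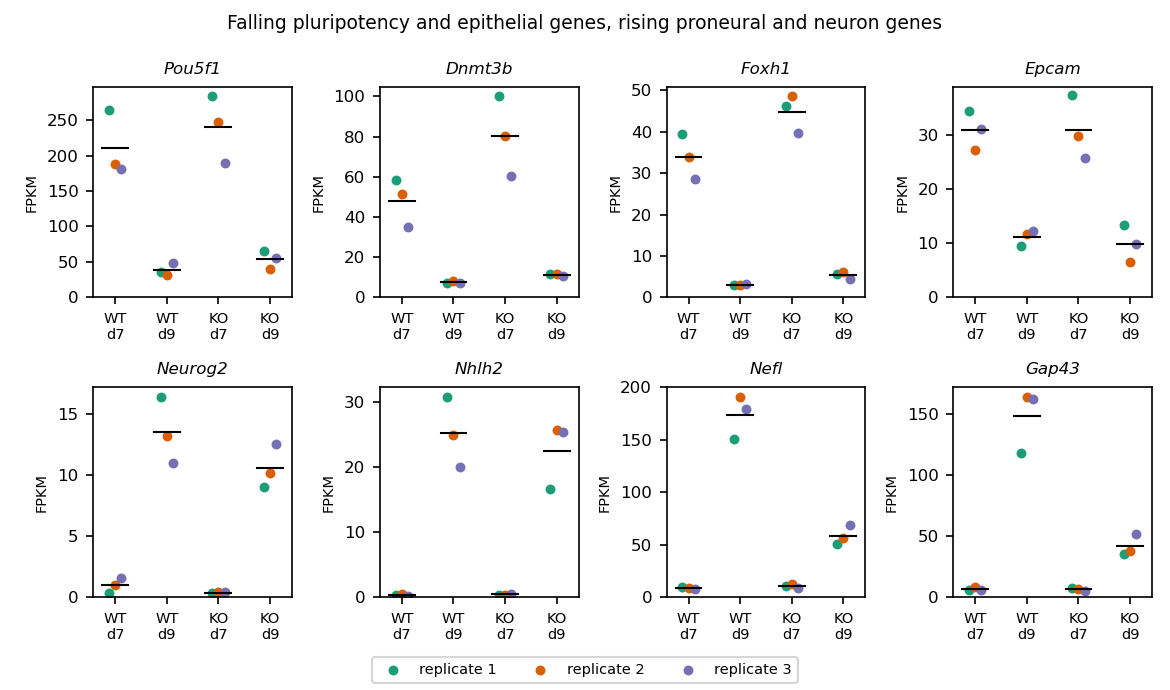
FPKM (y axis, from 0) of 8 genes in each of the 12 libraries of WT and KO cells at day 7 (d7) and day 9 (d9), with a bar at the mean of each group and points coloured by replicate number. Pou5f1, Dnmt3b, Foxh1 and Epcam are lower at day 9 in every KO library, Neurog2, Nhlh2, Nefl and Gap43 are higher, and the KO day 9 means of Nefl (58.6) and Gap43 (41.7) are below those of WT (174 and 148).

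Epithelial genes fell as well. Of 16 tested members of the surface ectoderm and epithelium list (23 listed), 11 were called lower and none higher (unadjusted 0, median change -0.74), and in WT cells 12 were lower and 1 higher (median -0.82). Epcam, an adhesion molecule of simple epithelia, went from 37.3, 29.7 and 25.8 to 13.4, 6.52 and 9.82 FPKM (change -1.58 ± 0.18, adjusted p = 8.39e-07). Cdh1, which encodes E-cadherin, went from 30.4, 21.9 and 19.5 to 10.4, 6.21 and 8.4 FPKM (change -1.42 ± 0.17, adjusted p = 2.49e-06). Cldn7, a tight junction claudin, and Esrp1, a splicing regulator of epithelial cells, changed by -1.39 and -1.3 (adjusted p = 4.15e-05 and 8.6e-05). No member of the list was called in the difference of the changes (unadjusted 0). Its summed FPKM was 385, 228 and 250 at day 7, highest in replicate 1, and 191, 113 and 160 at day 9, lowest in replicate 2, and without KO day 7 replicate 1 the list had 8 called lower. Pluripotent cells also express Cdh1, Epcam and Esrp1.

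Most neural progenitor genes rose. In that list 16 of 27 tested members (28 listed) were called higher and 1 lower (median 1.11), against 19 and 1 in WT cells (median 1.17). Vim, the intermediate filament vimentin, had 80.7, 110.1 and 91 FPKM at day 7 and 881, 917 and 1074 at day 9 (change 3.34 ± 0.16, adjusted p = 1.99e-12). Fabp7, a fatty-acid-binding protein of radial glia, rose from 61.3, 119.96 and 104 to 610.1, 468 and 536 FPKM (change 2.53 ± 0.24, adjusted p = 8.77e-08). Nes, the intermediate filament nestin, went from 24.5, 33.7 and 31.2 to 73, 88.5 and 90.0 (change 1.47 ± 0.25, adjusted p = 0.000159). For each of these the 2 days did not overlap. Pax6, a paired homeodomain factor, rose from 16.9, 28.5 and 24 to 50.3, 70.5 and 70.3 FPKM (change 1.43 ± 0.24, adjusted p = 9.76e-05). Sox1, the earliest neurectoderm marker of the list, was not called (64.9, 57.9 and 70.3 FPKM at day 7, 46.9, 46.6 and 46.2 at day 9, change -0.45 ± 0.19, adjusted p = 0.0744), with every day 9 library below every day 7 library. Sox1 gained a KO call with only the libraries compared (-0.45, adjusted p = 0.00179).

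The POU factor Pou3f3, of neural progenitors, went from 2.95, 3.85 and 2.17 to 39.6, 43.6 and 49.8 FPKM (change 3.52 ± 0.18, adjusted p = 7.51e-12). The noncoding transcript 2610017I09Rik, listed next to it at chr1:42705045-42751670 with Pou3f3 at chr1:42753991-42757054 (mm9), rose from 7.23, 13.3 and 7.24 to 123, 173 and 159.95 FPKM (change 3.93 ± 0.24, adjusted p = 1.84e-10). Ednrb, the endothelin receptor of progenitors and crest cells, changed by 3.05 ± 0.37, adjusted p = 2.82e-06. Plagl1, an imprinted zinc-finger gene, rose from 4.68 ± 0.892 to 32.5 ± 5.08 FPKM in KO cells. Its WT levels went from 25.2 ± 7.67 to 56.2 ± 6.37 (difference 1.39 ± 0.35, adjusted p = 0.038). Ptn, a secreted growth factor of progenitors, was the only one of the 27 called lower. It lay at 157, 219 and 233 and 196, 101 and 124 FPKM with overlapping days (change -0.57 ± 0.21, adjusted p = 0.0487). That call was lost in 13 of 16 other settings, single libraries among them. WT cells went from 200.01, 149 and 148 to 14.8, 9.06 and 11.3 FPKM, and the difference of the changes was 3.16 ± 0.3, adjusted p = 3.47e-06. The study's other ectoderm markers, Zfp521 and Col4a1, had changes of 0.21 and 0.03 (adjusted p = 0.2 and 0.933). Ptn lost its KO call without 4 of the 6 libraries, left out singly (adjusted p up to 0.255). Plagl1 lost its called difference without 8 of the 12 libraries, left out singly (adjusted p up to 0.131). Plagl1 lost its called difference in 4 of the other settings (adjusted p up to 0.241).

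Proneural and Notch pathway genes rose. Of 23 tested members (27 listed) 17 were called higher and 2 lower (median 1.82), and WT cells had 17 higher and 2 lower (median 2.06). Neurog2, a proneural bHLH factor at chr3:127336063-127338549 (mm9), went from 0.329, 0.413 and 0.412 to 9.0, 10.2 and 12.5 FPKM (change 3.05 ± 0.2, adjusted p = 1.84e-10). Its change in WT cells was 2.91, with a difference of 0.14 (adjusted p = 0.997). Nhlh2 and Nhlh1, bHLH factors of newly born neurons, rose further. Nhlh2 went from 0.421, 0.396 and 0.593 to 16.6, 25.7 and 25.4 FPKM (change 3.98 ± 0.16, adjusted p = 1.97e-13), and Nhlh1 from 1.09, 0.819 and 0.545 to 18.1, 24.9 and 25.5 (change 3.71 ± 0.15, adjusted p = 2.52e-13).

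Among Notch ligands, Dll1 rose from 11.5, 9.86 and 14.5 to 41.7, 43.1 and 54.9 FPKM (change 1.88 ± 0.23, adjusted p = 2.01e-06) and Dll3 from 3.72, 3.18 and 3.7 to 20.0, 27 and 34.8 (change 2.61 ± 0.29, adjusted p = 8.44e-07). Jag1 was called lower (-0.56, adjusted p = 0.00559). Hes6, which counters Hes1, rose (1.63, adjusted p = 2.92e-07), and Hes3, a repressor of early neural plate, fell (-1.64, adjusted p = 1.52e-05). Hes5, a direct target of Notch from the progenitor list, was higher at day 9 in all 3 libraries, 33.7, 25.4 and 31.6 against 56.3, 75.3 and 68 FPKM, but its change did not pass the test (1.11 ± 0.56, adjusted p = 0.143). Hes5 changed by 1.9 ± 0.56, adjusted p = 0.0145 in WT cells, with a difference of -0.79 ± 0.8, adjusted p = 0.978. Downstream of the proneural factors, Insm1 and Neurod4 rose in KO cells by 2.97 and 2.35 (adjusted p = 1.03e-09 and 5.31e-10). Their rises were larger in WT cells (4.16 and 3.56), and the differences were -1.19 ± 0.3, adjusted p = 0.0399 for Insm1 and -1.21 ± 0.23, adjusted p = 0.00402 for Neurod4. Olig3, a bHLH factor of dorsal progenitors, was the third member with a difference. It lay at 4.09, 11.4 and 7.12 and 11, 3.39 and 5.84 FPKM in KO cells (change -0.17 ± 0.34, adjusted p = 0.742) and at 19.9, 12.1 and 6.42 and 2.02, 2.07 and 1.53 in WT cells (difference 1.98 ± 0.49, adjusted p = 0.0348). Insm1 and Olig3 lost their called differences without 8 and 9 of the 12 libraries, left out singly (adjusted p up to 0.159 and 0.123). Hes5 gained a KO call with only the libraries compared (1.11, adjusted p = 0.000169). Insm1, Neurod4 and Olig3 lost their called differences in 3, 2 and 3 of the other settings (adjusted p up to 0.873).

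The starts of 4 genes are shown because Nhlh2 and Dll3 rose with this group, Hes5 is a direct target of Notch, and Gsx1 had the largest ranked rise. That ranking took called genes with a mean of at least 5 FPKM on the higher day and no overlap of the days. Each is the promoter window listed first for the gene in RefSeq's table (GRCm38.p6, 250 bases before to 50 after the start, on the gene's strand), and capitals mark matches to 3 motifs on either strand. CAGCTG, a palindrome, and CAGATG (or CATCTG) are E-boxes, the letters that proneural bHLH dimers bind, and GTGGGAA (or TTCCCAC) is the core bound by Rbpj, the DNA-binding protein of the Notch pathway.
Nhlh2, chr3:102009895-102010194, plus strand: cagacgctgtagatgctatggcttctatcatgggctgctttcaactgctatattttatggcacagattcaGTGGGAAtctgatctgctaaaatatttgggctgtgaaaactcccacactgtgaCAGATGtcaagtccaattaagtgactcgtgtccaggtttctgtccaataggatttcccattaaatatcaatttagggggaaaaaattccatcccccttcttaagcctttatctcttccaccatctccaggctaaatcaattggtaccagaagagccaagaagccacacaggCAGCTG
Dll3, chr7:28301736-28302035, minus strand: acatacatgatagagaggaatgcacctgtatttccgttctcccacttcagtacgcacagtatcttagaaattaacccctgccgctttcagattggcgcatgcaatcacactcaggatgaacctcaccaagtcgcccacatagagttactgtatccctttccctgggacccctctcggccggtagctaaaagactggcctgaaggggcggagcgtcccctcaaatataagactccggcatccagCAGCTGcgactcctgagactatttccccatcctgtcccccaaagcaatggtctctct
Hes5, chr4:154960673-154960972, plus strand: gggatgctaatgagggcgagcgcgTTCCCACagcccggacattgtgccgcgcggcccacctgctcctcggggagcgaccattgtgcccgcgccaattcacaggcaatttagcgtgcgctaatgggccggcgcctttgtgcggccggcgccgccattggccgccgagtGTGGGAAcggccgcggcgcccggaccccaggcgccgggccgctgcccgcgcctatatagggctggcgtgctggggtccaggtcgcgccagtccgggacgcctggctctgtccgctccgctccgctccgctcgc
Gsx1, chr5:147188446-147188745, plus strand: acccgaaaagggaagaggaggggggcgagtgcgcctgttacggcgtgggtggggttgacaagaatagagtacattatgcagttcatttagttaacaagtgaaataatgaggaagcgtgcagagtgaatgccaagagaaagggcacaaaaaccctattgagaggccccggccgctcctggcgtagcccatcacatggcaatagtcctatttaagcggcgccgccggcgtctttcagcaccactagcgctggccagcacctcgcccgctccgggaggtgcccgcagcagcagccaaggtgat

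Nhlh2 holds 3 matches, 1 of each motif, Dll3 holds 1 CAGCTG, Hes5 holds 2 Rbpj cores and no E-box of these letters, and Gsx1 holds 0 of the 3 motifs. Of the 17 proneural and Notch genes that rose, 13 had a window in the table, and 6 of the 13 (46.2%) held CAGCTG: Hes6, Dll3, Lfng, Gadd45g, Nhlh2 and Id2. That compares with 4353 of 27025 genes with a window (16.1%) and 247 of 1482 genes called higher (16.7%). CAGATG stood in 2 of the 13 (15.4%), in 17.2% of all windows and in 10.4% of genes called higher. GTGGGAA stood in 2 of the 13 (15.4%), in 6.39% of all and in 6.14% of genes called higher. The motifs do not overlap each other in the printed windows, and these shares are a description of letters only. Id2 lost its KO call without 5 of the 6 libraries, left out singly (adjusted p up to 0.119). Lfng lost its KO call in 1 of the other settings (adjusted p = 0.0575).

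Neuron genes rose, and for several of them the rise was smaller than in WT cells. Of 30 tested members of the postmitotic neuron list (34 fixed, 33 listed) 25 were called higher and none lower (unadjusted 0, median 2.1), against 27 and none in WT cells (unadjusted 0, median 2.67). The difference of the changes was called below 0 for 9 members and above 0 for 2, and below 0 for 5 without KO day 9 replicate 1. Nefl, the light neurofilament, had 10.6, 12.4 and 8.88 FPKM at day 7 and 50.7, 56.5 and 68.7 at day 9 in KO cells (change 2.36 ± 0.26, adjusted p = 7.36e-07). WT libraries had 9.45, 9.24 and 7.96 at day 7 and 151, 191 and 179.5 at day 9 (change 4.14). Day 7 levels of the 2 genotypes overlapped, every day 9 KO library lay below every day 9 WT library, and the changes differed by -1.78 ± 0.37, adjusted p = 0.0101. Gap43, a growth cone protein, showed the same order, with 7.84, 6.81 and 5.48 FPKM at KO day 7 and 35.8, 37.7 and 51.6 at KO day 9. Its WT values were 6.22, 8.3 and 6.42 and then 118, 164 and 162 (difference -1.75 ± 0.37, adjusted p = 0.0114). Nefl and Gap43 lost their called differences in 1 of the other settings each (adjusted p up to 0.164).

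Nefm, the medium neurofilament, rose by 2.76 in KO cells and 4.54 in WT cells (difference -1.78 ± 0.41, adjusted p = 0.0223). Elavl3, a neuronal RNA-binding protein, rose by 1.58 and 3.31 (difference -1.73 ± 0.42, adjusted p = 0.0314). Stmn3, a stathmin that binds tubulin, was not called in KO cells, at 22.4, 25.2 and 19.5 and 22.9, 27.1 and 20.6 FPKM (change 0.07 ± 0.21, adjusted p = 0.829). WT cells went from 13.5, 10.9 and 11.5 to 47.1, 48.6 and 53.5 (difference -1.91 ± 0.29, adjusted p = 0.000519). KO day 7 libraries were thus above WT day 7 libraries and KO day 9 libraries below WT day 9 libraries for Stmn3. Crmp1, a collapsin response mediator, Snap25, of the synaptic vesicle machinery, St18, a zinc-finger factor, and Lhx5, a LIM homeodomain factor, were the remaining members with a difference below 0 (-1.17, -1.0, -1.0 and -1.67). Tubb3, a neuronal tubulin, rose in KO cells from 84.1, 87.6 and 70.0 to 180.2, 244 and 272 FPKM (change 1.5 ± 0.42, adjusted p = 0.0107), and its difference from the WT change was -1.42 ± 0.59, adjusted p = 0.432. Nefm, Elavl3, Snap25 and Lhx5 lost their called differences without 5, 8, 6 and 7 of the 12 libraries, left out singly (adjusted p up to 0.0804, 0.0992, 0.0821 and 0.099). Nefm, Elavl3, Crmp1, Snap25, St18 and Lhx5 lost their called differences in 2, 2, 1, 3, 1 and 3 of the other settings (adjusted p up to 0.878). Tubb3 gained a called difference with only the libraries compared (-1.42, adjusted p = 0.00291).

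The neuron list genes with the largest KO changes had no called difference from WT. Robo3, an axon guidance receptor of commissural neurons, rose from 0.293, 0.276 and 0.138 to 6.86, 13.5 and 13.8 FPKM (change 3.27 ± 0.32, adjusted p = 9.87e-08, difference 0.67 ± 0.45, adjusted p = 0.859). Without WT day 9 replicate 1 that difference was 1.27 and called (adjusted p = 0.0143). Scrt2, a zinc-finger repressor of newborn neurons, rose from 0.571, 0.846 and 0.845 to 10.2, 18.8 and 20.4 (change 3.26 ± 0.21, adjusted p = 1.84e-10, difference -0.1 ± 0.29, adjusted p = 0.997). Ebf3, a factor of early postmitotic neurons, and Elavl4 changed by 2.89 and 2.78. Tlx3 and Lhx1 were the 2 members whose difference was above 0. Tlx3, a homeodomain factor of dorsal excitatory neurons, went from 0.125, 0.469 and 0 to 4.59, 4.89 and 6.87 FPKM in KO cells. It was at 0.396, 0.61 and 0.322 and then 0.644, 0.264 and 0.403 in WT cells (difference 2.44 ± 0.24, adjusted p = 3.47e-06). Lhx1 rose by 1.8 in KO cells and changed by -0.03 in WT cells (difference 1.83 ± 0.34, adjusted p = 0.00343).

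Dorsal neural tube genes rose in KO cells between the days, and for most of them the WT change was different. Of 22 tested members (29 listed) 17 were called higher and none lower (unadjusted 2, median 1.35). WT cells had 2 higher and 7 lower (median -0.12). The difference of the changes was called for 14 of the 22, each above 0 (unadjusted 0 below 0). Gsx1, a homeodomain factor of dorsal progenitors at chr5:148000272-148002522 (mm9), had 0.633, 0.662 and 1.59 FPKM at day 7 and 33.6, 25.5 and 44.7 at day 9 (change 4.18 ± 0.35, adjusted p = 9.93e-09). WT libraries held 0.893, 0.387 and 0.136 FPKM at day 7 and 3.49, 0.112 and 0.341 at day 9, all below every KO day 9 library, and the difference was 3.79 ± 0.49, adjusted p = 8.31e-05. Lbx1, a homeodomain factor of dorsal interneurons, went from 0.25, 0 and 0 to 10.8, 10.3 and 20.8 FPKM (change 3.73 ± 0.35, adjusted p = 5.93e-08). WT values were 0, 0 and 0.323 and 2.07, 0 and 0.27 (difference 3.21 ± 0.5, adjusted p = 0.000562). Gsx1 and Lbx1 lost their called differences in 1 of the other settings each (adjusted p up to 0.136).

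Zic1, a zinc-finger factor of the roof and dorsal tube, rose from 2.74, 3.37 and 4.74 to 54.9, 23.4 and 40.1 FPKM (change 3.07 ± 0.25, adjusted p = 7.48e-09, difference 2.96 ± 0.35, adjusted p = 2.8e-05). Msx3, a homeodomain gene of the dorsal neural tube, rose from 3.02, 3.99 and 3.98 to 40.7, 26.4 and 33.8 (change 2.88 ± 0.23, adjusted p = 4.84e-09, difference 2.97 ± 0.32, adjusted p = 1.16e-05). Pax3 and Pax7, paired homeodomain factors of the dorsal tube, went from 4.75, 5.5 and 7.7 to 35.1, 26.6 and 43.6 FPKM (change 2.36 ± 0.36, adjusted p = 3.95e-05 for Pax3) and from 1.79, 2.45 and 2.7 to 17.6, 15 and 25.4 (change 2.59 ± 0.36, adjusted p = 1.41e-05). For all 4 the KO day 9 libraries were above every other library of the 2 days. Their WT day 9 values were highest in replicate 1, with 6.91, 1.2 and 0.956 FPKM for Pax3 and 6.39, 0.904 and 0.876 for Pax7. The differences of the changes were 2.77 ± 0.51, adjusted p = 0.00355 and 2.58 ± 0.51, adjusted p = 0.00697. Pax3 and Pax7 lost their called differences in 2 of the other settings each (adjusted p up to 0.155).

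Several secreted signals of the list were also called. Rspo3, a Wnt agonist, went from 0.378, 0.663 and 0.662 to 9.98, 5.68 and 4.87 FPKM in KO cells (change 2.27 ± 0.21, adjusted p = 3.89e-08). WT cells went from 5.91, 8.68 and 8.48 to 0.859, 0.56 and 1.06 (change -2.24 ± 0.21, adjusted p = 3.18e-08), so the 2 genotypes moved in opposite directions (difference 4.52 ± 0.3, adjusted p = 5.82e-09). Rspo1, of the same family, and the ligands Wnt3, Wnt8b and Bmp6 rose in KO cells by 1.21, 1.8, 1.19 and 1.54 (adjusted p = 6.26e-05, 2.69e-06, 1.32e-05 and 1.4e-07). They had differences of 1.88, 2.32, 1.35 and 1.0 (adjusted p = 0.000343, 0.000133, 0.00205 and 0.014). Zic4, Irx3 and Gdf10 completed the 14, with differences of 1.42, 1.27 and 1.04. Gdf10, also secreted, had a KO change of -0.43 (adjusted p = 0.0758), and was called lower without KO day 7 replicate 2 or KO day 9 replicate 1 (-0.57 and -0.63, adjusted p = 0.037 and 0.0149). The members called in KO cells without a called difference were Msx1, Msx2, Irx5 and Dbx1. Without WT day 9 replicate 1 the differences of Msx2 and Irx5 were called (1.31 and 1.17, adjusted p = 0.0462 and 0.00516), as was that of Msx2 without KO day 7 replicate 3 (1.39, adjusted p = 0.0274). Dbx1, of the intermediate tube, rose in both genotypes (2.06 in KO and 2.37 in WT cells). Summed FPKM of the 29 dorsal list genes was 236, 218 and 243 in KO day 7 libraries and 480, 414 and 533 at day 9, against 220, 186 and 167 and then 205, 102 and 99.5 in WT cells. In the same libraries the sums of the ventral list were 102, 97.7 and 99.5 at KO day 7 and 130, 299 and 180 at KO day 9. In WT cells they lay between 187 and 391 at day 7 and between 675 and 922 at day 9. Their part in the dorsal differences was not tested. Without KO day 9 replicate 2, 16 of the 22 were called higher and none lower, and 14 differences of the changes were called above 0. Msx1 lost its KO call without KO day 7 replicate 2 (0.54, adjusted p = 0.0735) and without KO day 9 replicate 1 (0.46, adjusted p = 0.0861). Irx3 lost its KO call without 5 of the 6 libraries, left out singly (adjusted p up to 0.151). Bmp6 lost its called difference without KO day 9 replicate 1 (0.85, adjusted p = 0.0546). Irx3 and Gdf10 lost their called differences without 9 and 7 of the 12 libraries, left out singly (adjusted p up to 0.114 and 0.131). Irx3 and Msx1 lost their KO calls in 3 and 2 of the other settings (adjusted p up to 0.162). Gdf10 gained a KO call after quantile normalization (-0.72, adjusted p = 0.00702). Msx2 gained a called difference with the same normalization (adjusted p = 0.0181). Wnt8b, Bmp6, Irx3 and Gdf10 lost their called differences in 1, 2, 3 and 3 of the other settings (adjusted p up to 0.44).

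**Figure D3:**
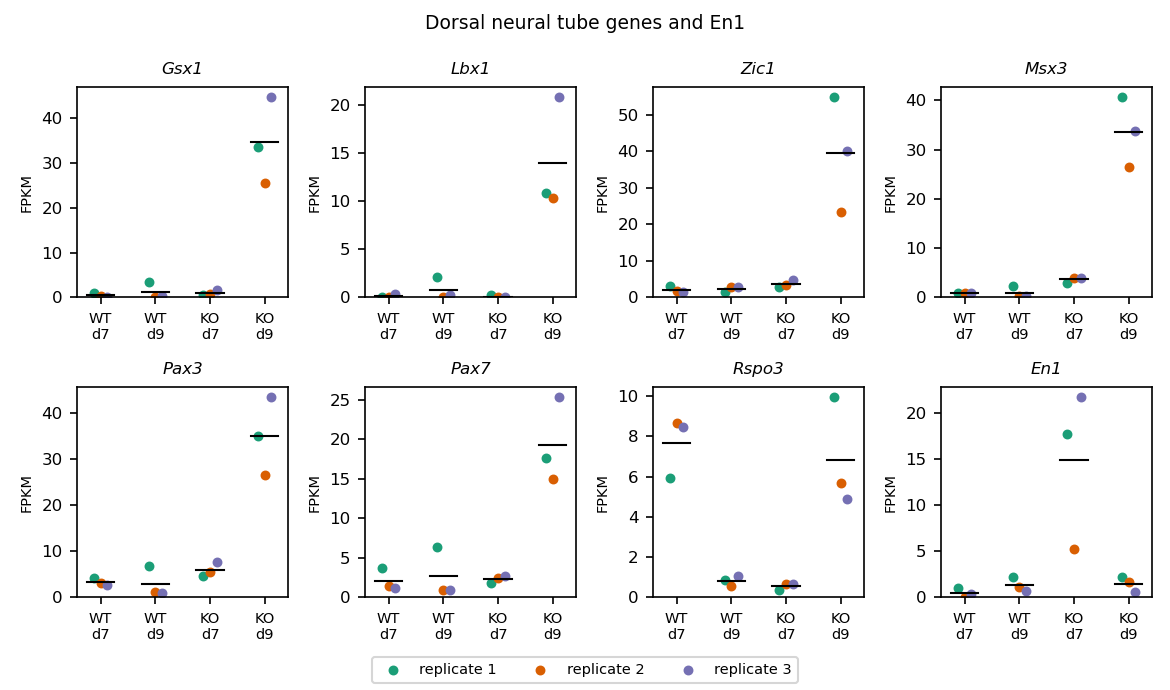
FPKM (y axis, from 0) of 7 dorsal genes and En1 in the 12 libraries of WT and KO cells at day 7 (d7) and day 9 (d9), with a bar at each group mean and points coloured by replicate number. Gsx1, Lbx1, Zic1, Msx3, Pax3 and Pax7 are high in the 3 KO day 9 libraries alone, Rspo3 is high at WT day 7 and KO day 9, and En1 is high at KO day 7 with replicate 2 lowest of the 3.

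Of 26 tested midbrain and hindbrain genes (29 listed) 10 were called lower and 5 higher (median -0.33), the share higher being near that over all genes. WT cells had 11 lower and 4 higher (median -0.23). En1, a homeodomain factor of the midbrain–hindbrain boundary at chr1:122499064-122504568 (mm9), had 17.8, 5.21 and 21.8 FPKM at day 7 and 2.21, 1.72 and 0.578 at day 9 (change -2.53 ± 0.38, adjusted p = 3.41e-05). WT libraries lay at 1.04, 0.0862 and 0.364 and 2.19, 1.12 and 0.683 FPKM, all below every KO day 7 library, and the difference of the changes was -3.17 ± 0.54, adjusted p = 0.00174. The KO call for En1 was lost with only the KO libraries and the replicate number in the fit (adjusted p = 0.0851). Tal2, a bHLH factor of midbrain neurons, fell from 26.2, 18.1 and 17.4 to 6.1, 3.73 and 3.92 FPKM (change -1.95 ± 0.26, adjusted p = 8.23e-06), a difference from WT of -1.63 (adjusted p = 0.0202). Pax2, of the same boundary, changed by -0.69 ± 0.24, adjusted p = 0.0344 in KO cells and by 0.95 in WT cells (difference -1.64 ± 0.34, adjusted p = 0.0104). Fgf8 and Fgf15, ligands of the boundary and neural plate, fell in both genotypes. Their changes were -1.14 and -1.82 in KO cells and -3.28 and -2.87 in WT cells. The difference was called for Fgf8 (2.14 ± 0.48, adjusted p = 0.0176), and for Fgf15 without KO day 9 replicate 2 (1.28, adjusted p = 0.0331). Etv4, a target of FGF signalling, was the fifth list member with a difference (1.59 ± 0.35, adjusted p = 0.0161). Without KO day 9 replicate 2 the list had 4 differences above 0 and 2 below, and without KO day 9 replicate 1 it had 0 above and 3 below. Wnt1 was not called, with 11.7, 4.12 and 18.8 and 21.9, 7.77 and 19 FPKM and replicate 2 lowest at both days (change 0.55 ± 0.34, adjusted p = 0.227). It was called higher without KO day 7 replicate 3 or KO day 9 replicate 2 (0.98 in both, adjusted p = 0.0293 and 0.0309). Fgf8 lost its KO call without KO day 9 replicate 3 (-1.03, adjusted p = 0.0575). Pax2 lost its KO call without 3 of the 6 libraries, left out singly (adjusted p up to 0.25). Tal2, Fgf8 and Etv4 lost their called differences without 5, 5 and 2 of the 12 libraries, left out singly (adjusted p up to 0.0817, 0.0668 and 0.0628). Pax2 and Fgf8 lost their KO calls in 4 and 1 of the other settings (adjusted p up to 0.178). Tal2, Pax2 and Fgf8 lost their called differences in 3, 2 and 2 of the other settings (adjusted p up to 0.779).

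Forebrain genes gave 3 called lower and 2 higher of 11 tested (25 listed). Eomes, a T-box factor, was the list member with a difference, at 1.46, 2.25 and 1.77 and 2.09, 2.37 and 1.52 FPKM in KO cells (difference 1.49 ± 0.25, adjusted p = 0.00114). Its KO change was not called (adjusted p = 0.754), so the difference lay in a WT change below 0. Otx2, of fore- and midbrain and epiblast, fell from 67.6, 41.7 and 55.5 to 30.1, 22.8 and 18.3 FPKM (change -1.18 ± 0.27, adjusted p = 0.00187). Fezf2, a telencephalic factor, was also called lower, with a change of -1.11. Wnt7b, a ligand of the forebrain and spinal cord, rose from 4.62, 3.28 and 6.46 to 38.5, 31.8 and 43.2 FPKM (change 2.77 ± 0.32, adjusted p = 1.23e-06). Hox genes, which mark hindbrain and spinal levels, rose: 7 of 9 tested members (27 listed) were called higher and none lower (unadjusted 0, median 1.43), against 1 and none in WT cells (unadjusted 0, median 0.44). The count was 4 without KO day 9 replicate 2 or replicate 3 and 5 without KO day 7 replicate 1 or replicate 3. Summed FPKM of the 27 Hox genes was 48, 114 and 81 at KO day 7 and 134, 204 and 199 at KO day 9. WT sums were 125, 173 and 210 and then 209, 243 and 243, so every KO sum lay below every WT sum of the same day. Hoxb8, the most posterior member tested, went from 0.95, 1.45 and 1.61 to 10.4, 10.4 and 16.2 FPKM (change 2.49 ± 0.31, adjusted p = 3.16e-06). WT libraries had 0.574, 2.41 and 3.5 and then 0.701, 3.3 and 3.14 FPKM (difference 2.38 ± 0.44, adjusted p = 0.00355). That was the only Hox gene of the 9 with a called difference in the main fit. Hoxb7 gained a called difference after quantile normalization and without WT day 7 replicate 1. With only the libraries compared and the replicate number in the fit, Hoxb7 and Hoxa2 gained a called difference (adjusted p = 0.0317 for Hoxa2). The lowest adjusted p for Hoxb7 over all alternatives was 0.0194. Hoxa2, of the anterior hindbrain, rose from 14, 32 and 26.1 to 59.6, 77.5 and 76.9 FPKM (change 1.59 ± 0.24, adjusted p = 3.83e-05, difference 1.11 ± 0.35, adjusted p = 0.136). Hoxb7 and Hoxa3, of spinal and hindbrain levels, changed by 1.56 and 1.52. Hoxb4 lost its KO call without KO day 9 replicate 2 (1.1, adjusted p = 0.07) and without KO day 9 replicate 3 (1.29, adjusted p = 0.0503). Hoxb2 and Hoxb3 lost their KO calls without 4 and 4 of the 6 libraries, left out singly (adjusted p up to 0.198 and 0.148). Otx2, Hoxb2 and Hoxb3 lost their KO calls in 1, 3 and 1 of the other settings (adjusted p up to 0.195). Eomes and Hoxb8 lost their called differences in 1 and 2 of the other settings (adjusted p up to 0.148).

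Floor plate and ventral genes were called higher for 11 of 18 tested members (26 listed) and lower for 1 (median 1.05), against 9 and 1 in WT cells (median 1.12). Among the 3 KO day 9 libraries replicate 2 held the highest value of 13 of the 18. Shh, the floor plate ligand, had 0.0672, 0.169 and 0.168 FPKM at day 7 and 1.6, 10.3 and 1.97 at day 9. Its change was 1.97 ± 0.47, adjusted p = 0.00327 (1.29 with an adjusted p of 0.0243 without that library). Nkx6-2, a ventral homeodomain factor, went from 2.04, 1.83 and 1.83 to 6.35, 42.8 and 11.1 FPKM (change 2.44 ± 0.58, adjusted p = 0.00372; 1.7 with an adjusted p of 0.0217 without it). Nkx2-9 went from 0, 0.789 and 0 to 1.87, 17.7 and 2.95 FPKM (change 2.3 ± 0.58, adjusted p = 0.00535; 1.47 with an adjusted p of 0.0333 without it). Nkx2-2, of the most ventral progenitors, lay at 0, 0 and 0.225 and 0.0972, 8.41 and 0.947 FPKM, and its call rested on replicate 2 (change 1.35 ± 0.49, adjusted p = 0.0401; 0.45 with an adjusted p of 0.302 without it). With that library left out 10 of the 18 were called higher and 2 lower (median 0.89). The responders Ptch1 and Gli1, which report Shh signalling, changed by 1.24 and 1.61 (adjusted p = 0.000445 and 0.000265). Nkx2-2 lost its KO call without 4 of the 6 libraries, left out singly (adjusted p up to 0.302). Nkx6-2, Nkx2-9 and Nkx2-2 lost their KO calls in 1, 1 and 2 of the other settings (adjusted p up to 0.247).

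Shh and Nkx2-2 stayed below the WT libraries of the same day in every KO library. Shh was at 4.27, 21 and 24.2 FPKM at WT day 7 and 21.5, 43 and 31.9 at WT day 9, and Nkx2-2 at 0.475, 1.32 and 2.08 and 20.9, 34.6 and 34.1. The difference of the changes for Nkx2-2 was -2.44 ± 0.69, adjusted p = 0.0902, and without KO day 9 replicate 2 it was -3.33 and called (adjusted p = 5.92e-05). Spon1, the secreted floor plate protein F-spondin, had 6.09, 5.33 and 4.66 and 1.41, 8.92 and 2.22 FPKM in KO cells (change -0.57 ± 0.36, adjusted p = 0.23). Without KO day 9 replicate 2 it was called lower (-1.18, adjusted p = 0.00235). WT cells went from 2.5, 3.3 and 3.62 to 36.9, 66.7 and 60.0 (difference -4.29 ± 0.5, adjusted p = 2.85e-05). Ntn1, the floor plate guidance cue netrin, and Sulf1, an extracellular sulfatase, had differences of -2.16 and -1.44. Sulf1 was the member called lower in KO cells (-1.07 ± 0.21, adjusted p = 0.000536). The 5 differences below 0 were 6 without KO day 9 replicate 2 and 3 without KO day 9 replicate 1, KO day 9 replicate 3, KO day 7 replicate 1 or KO day 7 replicate 3. Slit1 and Phox2a, the latter a hindbrain motor neuron factor, rose in KO cells by 1.97 and 0.73, and in WT cells by 3.25 and 2.8. Their differences were -1.28 ± 0.32, adjusted p = 0.0354 for Slit1 and -2.07 ± 0.32, adjusted p = 0.00059 for Phox2a. Foxj1, of ciliated floor plate and node cells, was the member with a difference above 0 (1.86 ± 0.33, adjusted p = 0.00204). It lay at 0.697, 1.4 and 1.31 and 1.36, 1.7 and 1.8 FPKM in KO cells and 9.89, 11.8 and 5.31 and 1.59, 2.95 and 2.4 in WT cells. Olig2, of motor neuron progenitors and a study marker, was not called, at 0.519, 0.651 and 1.02 and 0.964, 2.91 and 1.65 FPKM (change 0.67 ± 0.31, adjusted p = 0.108; 0.91 with an adjusted p of 0.0496 without KO day 9 replicate 1). Phox2a lost its KO call without KO day 7 replicate 2 (0.63, adjusted p = 0.074) and without KO day 9 replicate 3 (0.49, adjusted p = 0.133). Nkx2-2 lost its KO call without 4 of the 6 libraries, left out singly (adjusted p up to 0.302). Ntn1 and Slit1 lost their called differences without 10 and 8 of the 12 libraries, left out singly (adjusted p up to 0.0925 and 0.131). Phox2a lost its KO call in 1 of the other settings (adjusted p = 0.174). Olig2 gained a KO call with a pseudocount of 0.1 (1.14, adjusted p = 0.0458). Ntn1, Sulf1, Slit1, Phox2a and Foxj1 lost their called differences in 3, 1, 4, 1 and 1 of the other settings (adjusted p up to 0.596). Nkx2-2 gained a called difference after quantile normalization (-2.99, adjusted p = 0.0267).

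**Figure D4:**
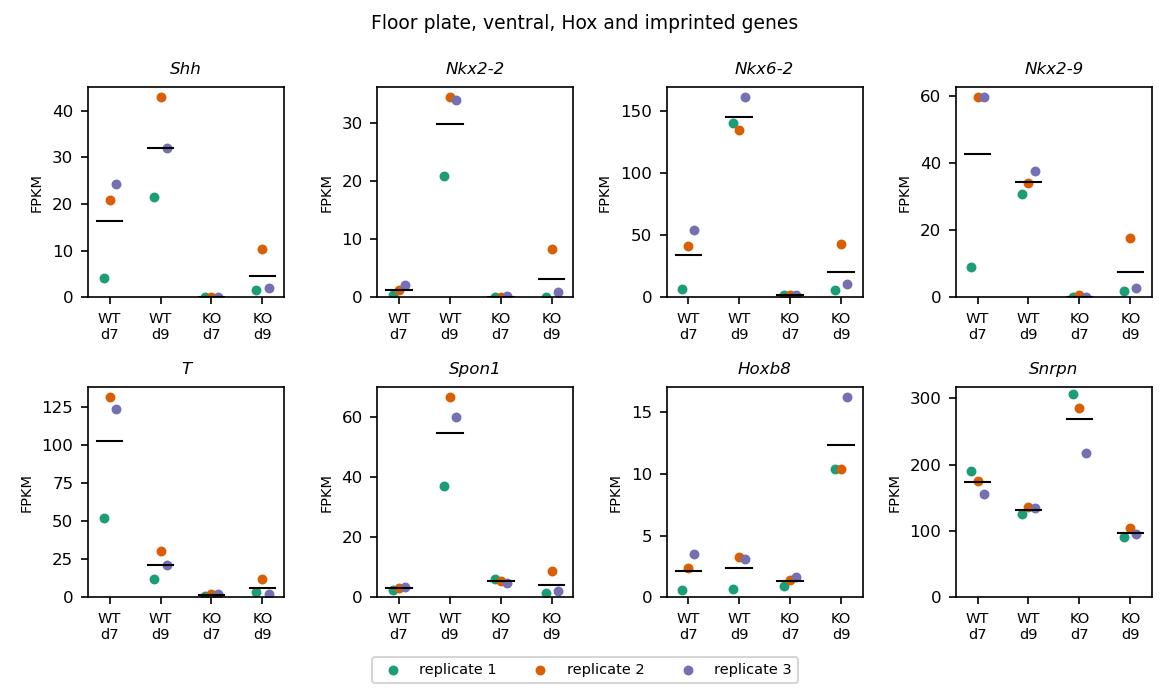
FPKM (y axis, from 0) of 8 genes in the 12 libraries of WT and KO cells at day 7 (d7) and day 9 (d9), with a bar at each group mean and points coloured by replicate number. In the KO day 9 group replicate 2 is the highest for Shh, Nkx2-2, Nkx6-2, Nkx2-9, T and Spon1, Hoxb8 is highest in the 3 KO day 9 libraries, and Snrpn falls from KO day 7 to KO day 9 in every library.

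Neural crest genes gave 5 higher and 1 lower of 10 tested (20 listed). Tfap2b and Tfap2a, AP-2 factors of crest and dorsal interneurons, rose from 0.285, 0.321 and 0.284 to 4.32, 2.93 and 5.84 FPKM (change 2.01 ± 0.17, adjusted p = 9.82e-09) and from 0.561, 0.469 and 0.546 to 4.29, 2.92 and 5.47 (change 1.75 ± 0.2, adjusted p = 1.24e-06). The WT changes of these 2 genes were -0.15 and 0.36, and both differences were called (2.16 ± 0.24, adjusted p = 1.16e-05 and 1.39 ± 0.29, adjusted p = 0.01). Sox8 rose by 1.79 (difference 0.95 ± 0.22, adjusted p = 0.0206). Ngfr, the low-affinity neurotrophin receptor, and Twist1, a bHLH factor of mesenchyme, were the others called higher (1.23 and 1.08). The receptor Erbb3 was called lower (-0.81). Snai1, a mesoderm and crest marker named by the study, changed by -0.09 ± 0.31, adjusted p = 0.855. Erbb3 lost its KO call without KO day 7 replicate 1 (-0.66, adjusted p = 0.0507). Twist1 lost its KO call without 4 of the 6 libraries, left out singly (adjusted p up to 0.129). Sox8 lost its called difference without 6 of the 12 libraries, left out singly (adjusted p up to 0.0796). Tfap2a and Sox8 lost their called differences in 1 and 2 of the other settings (adjusted p up to 0.758).

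Wnt pathway genes split, with 8 of 28 tested members (34 listed) called higher and 7 lower (median -0.03; 4 lower without KO day 7 replicate 1) and 4 differences above 0 and none below (unadjusted 3 below; 4 above and 2 below without KO day 9 replicate 2). The ligand Wnt7a rose from 0.557, 0.909 and 0.419 to 6.94, 15.7 and 13.8 FPKM (change 2.96 ± 0.25, adjusted p = 1.02e-08). Wnt8a, expressed in the early gastrula, fell from 10.6, 21.3 and 15.1 to 1.77, 0.933 and 0.738 (change -2.93 ± 0.24, adjusted p = 9.25e-09). Among agonists and receptors of the roof, Rspo2 went from 0.158, 0.265 and 0.661 to 9.67, 4.81 and 5.01 FPKM (change 2.42 ± 0.19, adjusted p = 2.74e-09, difference 2.31 ± 0.26, adjusted p = 1.78e-05). Fzd10, a frizzled receptor, went from 15.6, 15.7 and 21.4 to 72.9, 43.3 and 71.9 (change 1.75 ± 0.25, adjusted p = 1.34e-05). Its WT change was -0.85 ± 0.25, adjusted p = 0.0106, a difference of 2.6 ± 0.35, adjusted p = 0.000123. The secreted Wnt inhibitor Sfrp2 rose from 81.3, 103 and 93.3 to 297, 247 and 330.3 FPKM (change 1.64 ± 0.2, adjusted p = 1.67e-06, difference 1.6 ± 0.28, adjusted p = 0.00199). Dkk1, another secreted inhibitor, had 1.06, 0.409 and 0.714 and 1.41, 1.9 and 0.668 FPKM in KO cells and 5.6, 20.9 and 19.7 and 1.77, 3.79 and 2.72 in WT cells (difference 2.38 ± 0.45, adjusted p = 0.00417). Dkk1 lost its called difference in 2 of the other settings (adjusted p up to 0.141).

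BMP and TGF-beta genes gave 4 higher and 1 lower of 13 tested (25 listed). Nog, the BMP antagonist noggin, rose from 1.35, 0.242 and 0.844 to 3.97, 4.7 and 3.05 FPKM (change 1.47 ± 0.37, adjusted p = 0.00445, difference 2.12 ± 0.52, adjusted p = 0.0351). Fst, the activin antagonist follistatin, fell from 53.6, 57.4 and 65.6 to 18, 16 and 15.3 (change -1.78 ± 0.25, adjusted p = 1.18e-05). It fell further in WT cells (change -3.16, difference 1.39 ± 0.35, adjusted p = 0.0391). Chrd, the BMP antagonist chordin, was not called in KO cells (0.46 ± 0.2, adjusted p = 0.0902) and had a difference of 2.12 ± 0.29, adjusted p = 0.000131. The receptors Bmpr1b, Bmpr2 and Acvr2a rose by 1.57, 0.73 and 1.12, with a difference for Bmpr1b (1.0 ± 0.23, adjusted p = 0.0205). The 4 differences of this list were 1 or 2 without any single KO library. In the retinoic acid list 3 of 14 tested (17 listed) were higher and 3 lower. Cyp26b1, which degrades retinoic acid, rose from 2.65, 4.48 and 3.92 to 21.1, 33.8 and 35.3 FPKM (change 2.72 ± 0.22, adjusted p = 5.64e-09, difference 1.21 ± 0.31, adjusted p = 0.0412). Rarg, a receptor, fell from 18.9, 17.4 and 17.4 to 4.89, 4.32 and 2.96 (change -1.92 ± 0.32, adjusted p = 0.000108). Crabp2, a binding protein, and the zinc-finger gene Tshz1 rose by 1.06 and 1.34. Dhrs3, a retinal reductase, was also called lower (-0.93). Crabp1, a retinoic-acid-binding protein, was higher in every day 9 library but not called, at 398, 1231 and 839.8 against 1838, 1801 and 1854 FPKM with KO day 7 replicate 1 lowest (change 1.3 ± 0.77, adjusted p = 0.214). Nog, Fst, Bmpr1b and Cyp26b1 lost their called differences without 9, 11, 5 and 8 of the 12 libraries, left out singly (adjusted p up to 0.119, 0.113, 0.0788 and 0.139). Dhrs3 lost its KO call in 1 of the other settings (adjusted p = 0.0626). Nog, Fst, Bmpr1b and Cyp26b1 lost their called differences in 3, 4, 3 and 4 of the other settings (adjusted p up to 0.82).

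**Figure D5:**
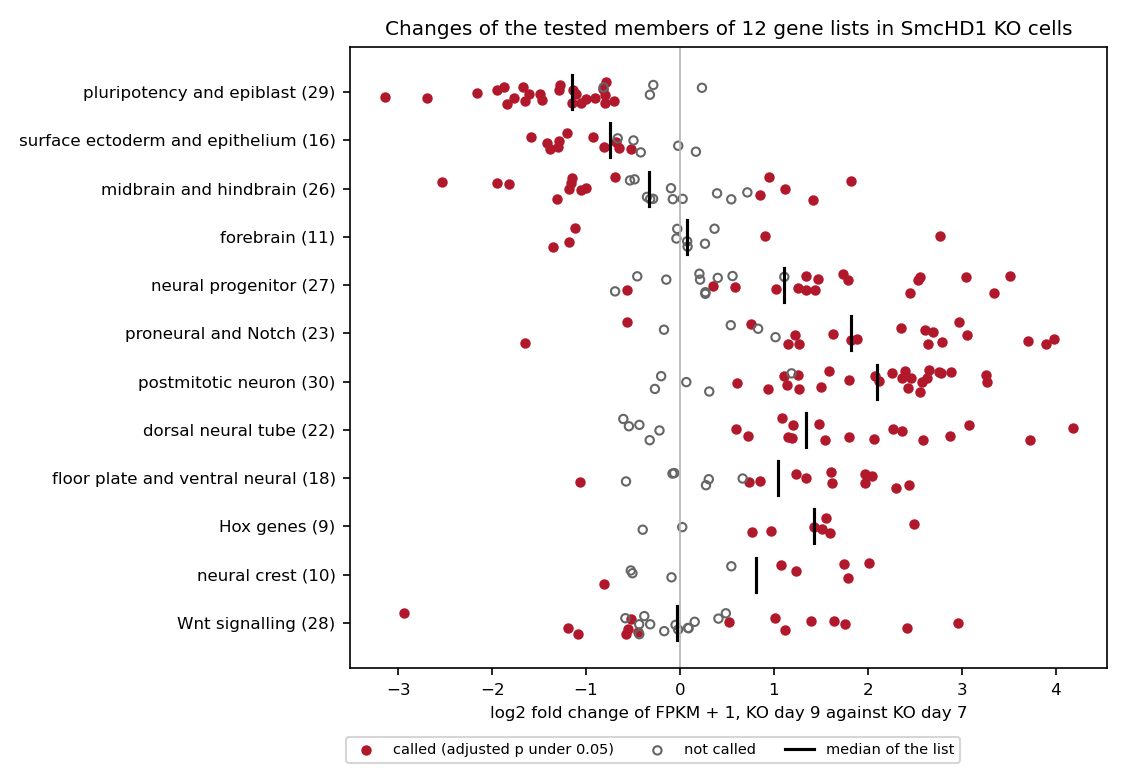
Log2 change from KO day 7 to KO day 9 (x axis, FPKM + 1, 3 libraries per group) of every tested member of 12 gene lists (y axis, number tested in brackets), with called genes filled red, others open, and a black bar at each list's median. Medians run from -1.15 for pluripotency and epiblast genes to 2.1 for postmitotic neuron genes.

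Mesoderm and endoderm lists summed to less in KO than in WT cells. Of the 26 mesoderm and mesenchyme genes 8 were tested, with 2 called higher (T and Acta2) and 1 lower. The summed FPKM of the list was 43.2 to 47.5 at KO day 7 and 47.9 to 52.3 at KO day 9, against 134 to 259 and 70.3 to 186 in WT cells. T, the mesoderm factor brachyury, had 0.719, 2.03 and 2.03 FPKM at KO day 7 and 3.8, 12.2 and 2.42 at KO day 9 (change 1.26 ± 0.44, adjusted p = 0.0351; 0.69 with an adjusted p of 0.227 without KO day 9 replicate 2). In WT cells T fell from 52.1, 132 and 124 to 12.2, 30.2 and 21 FPKM (difference 3.46 ± 0.63, adjusted p = 0.00355). Endoderm genes, 5 of 20 tested, gave 2 called higher (0 without KO day 9 replicate 2), Spink3 and Lama1. Their list summed to 22.0 to 31.3 FPKM at KO day 7 and 23.2 to 40.6 at KO day 9, against 104 to 359 and 55.5 to 119 in WT cells. Cer1, a secreted antagonist of anterior endoderm, was at 0.215, 3.1 and 2.29 and 3.5, 2.85 and 2.02 FPKM in KO cells (change 0.56 ± 0.33, adjusted p = 0.201; 0.9 with an adjusted p of 0.0485 without KO day 7 replicate 2). It fell from 40.9, 101 and 66.2 to 1.0, 2.16 and 1.85 in WT cells (difference 5.21 ± 0.46, adjusted p = 1.05e-06). Spink3, of endoderm, went from 1.51, 0 and 0 to 5.72, 18.4 and 3.54 FPKM, highest in replicate 2 (change 2.63 ± 0.74, adjusted p = 0.0117; 2.02 with an adjusted p of 0.0665 without it). Gata4 and Gata6, study markers of endoderm, were below the filter. Tbx6, a study marker of mesoderm, had a change of 0.39 ± 0.2, adjusted p = 0.145. Acta2, smooth muscle actin, rose from 6.3, 8.3 and 9.73 to 29.3, 15.9 and 23.3 FPKM (change 1.37 ± 0.23, adjusted p = 0.000135, difference 1.72 ± 0.33, adjusted p = 0.00469). Spink3 lost its KO call without KO day 9 replicate 2 (2.02, adjusted p = 0.0665). T lost its KO call without KO day 7 replicate 1 (0.99, adjusted p = 0.149) and without KO day 9 replicate 2 (0.69, adjusted p = 0.227). Lama1 lost its KO call without 4 of the 6 libraries, left out singly (adjusted p up to 0.124). T, Lama1 and Acta2 lost their KO calls in 2, 2 and 1 of the other settings (adjusted p up to 0.116). T and Acta2 lost their called differences in 2 of the other settings each (adjusted p up to 0.612).

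Blood and endothelial genes, 4 of 17 tested, gave 3 called lower (1 without KO day 9 replicate 2), of which Pecam1 is an endothelial marker (-0.69 ± 0.19, adjusted p = 0.00775). The list summed to 39.2, 36.2 and 42.9 FPKM in KO mESCs and to 18.3, 14.9 and 11.4 at KO day 7. Its genes are thus also expressed in mESCs. The embryonic globins Hbb-bh1 and Hba-x, of primitive red cells, went from 4.47, 2.55 and 2.54 to 0, 0.431 and 0.476 FPKM (change -1.68 ± 0.26, adjusted p = 3.77e-05) and from 2.08, 2.61 and 1.04 to 0.451, 0 and 0.977 (change -1.0 ± 0.33, adjusted p = 0.0245). Their WT changes were 1.19 ± 0.26, adjusted p = 0.00108 and 0.99 ± 0.33, adjusted p = 0.0236. Both differences were called, -2.87 ± 0.36, adjusted p = 6.34e-05 for Hbb-bh1 and -1.99 ± 0.47, adjusted p = 0.0239 for Hba-x. Cdh5, which defines endothelium, lay at 2.8, 1.32 and 1.37 and 3.08, 1.25 and 2.93 FPKM (change 0.26 ± 0.22, adjusted p = 0.392). Pecam1 lost its KO call without KO day 9 replicate 2 (-0.54, adjusted p = 0.0539). Hba-x lost its KO call without 4 of the 6 libraries, left out singly (adjusted p up to 0.134). Hba-x lost its called difference without 7 of the 12 libraries, left out singly (adjusted p up to 0.0817). Hba-x lost its called difference in 2 of the other settings (adjusted p up to 0.149).

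Outside the lists, 3 genes were among the 6 with the largest differences below 0. Cxcl12, a chemokine, fell from 6.0, 4.07 and 3.3 to 1.63, 1.49 and 1.39 FPKM (change -1.1 ± 0.29, adjusted p = 0.00694). It rose in WT cells (change 2.43, difference -3.53 ± 0.42, adjusted p = 2.7e-05). Rgs4, a regulator of G protein signalling in neurons, rose from 0.484, 0.304 and 0.833 to 2.49, 7.37 and 3.05 (change 1.69 ± 0.24, adjusted p = 1.34e-05). The WT rise ran from 0.32, 0.814 and 0.468 to 36.6, 59.1 and 55.8 (difference -3.36 ± 0.34, adjusted p = 3.47e-06). C1ql1, a secreted synaptic protein, was at 7.46, 9.36 and 11.5 and 8.77, 14.8 and 10.8 FPKM in KO cells. WT cells went from 5.88, 4.27 and 7.38 to 43.8, 66.4 and 57.8 (difference -2.82 ± 0.67, adjusted p = 0.0324). C1ql1 lost its called difference without 9 of the 12 libraries, left out singly (adjusted p up to 0.0963). Cxcl12 lost its KO call in 1 of the other settings (adjusted p = 0.0541). C1ql1 lost its called difference in 3 of the other settings (adjusted p up to 0.0895).

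Glial genes gave 4 higher and 3 lower of 8 tested (15 listed), and 2 higher and 1 lower without KO day 9 replicate 3 or KO day 7 replicate 2. Sparcl1, a matrix protein of radial glia and astrocytes, rose from 1.08, 3.28 and 2.42 to 12, 14.4 and 9.73 FPKM (change 2.05 ± 0.38, adjusted p = 0.000401). Slc1a2, a glutamate transporter, Mlc1 and Mbp were the others called higher (1.32, 1.75 and 0.51). Mlc1 was listed at 0 in all 3 day 7 libraries and at 1.69, 2.06 and 3.65 FPKM at day 9. The gap junction gene Gja1, Aldoc and Cnp were called lower (-1.2, -1.28 and -0.65). No member of this list was called in the difference of the changes (unadjusted 1). Slc1a2, Mbp, Aldoc and Cnp lost their KO calls without 5, 4, 3 and 5 of the 6 libraries, left out singly (adjusted p up to 0.0873, 0.127, 0.0657 and 0.126). Mbp and Cnp lost their KO calls in 2 and 3 of the other settings (adjusted p up to 0.147).

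Of 29 cell cycle genes tested 4 were called higher and 4 lower (median -0.08), shares near those over all genes, and 0 were lower without 4 of the 6 libraries, left out singly. The cyclin Ccnd2 rose from 15.9, 20.6 and 17.6 to 42, 53.2 and 46.9 FPKM (change 1.35 ± 0.21, adjusted p = 4.46e-05). The cell cycle inhibitors Cdkn1c and Cdkn1b rose by 1.36 ± 0.33, adjusted p = 0.00346 and 0.95 ± 0.15, adjusted p = 3.7e-05, and Mycl1 by 0.88. The 4 called lower were Ccne1, Mcm5, Cdc20 and Plk1, with changes of -1.1, -0.53, -0.38 and -0.33. In the DNA methylation and chromatin list 2 of 25 tested (26 listed) were higher and 3 lower (median -0.07), again no more than over all genes. The Polycomb gene Bmi1 rose from 9.23, 10.2 and 9.85 to 21.8, 20.7 and 19.8 FPKM (change 1.02 ± 0.13, adjusted p = 4.7e-06). Cbx7, also of Polycomb, fell from 30.4, 23.8 and 19.4 to 7.07, 5.87 and 8.37 (change -1.64 ± 0.19, adjusted p = 1.12e-06). Ring1 rose by 0.51, and Jarid2 and Hmga1 had changes of -0.64 and -0.64, both called. The WT changes of Bmi1 and Cbx7 were 0.62 ± 0.13, adjusted p = 0.000915 and -1.53 ± 0.19, adjusted p = 2.16e-06. Ccne1, Mcm5, Cdc20 and Plk1 lost their KO calls without 5, 6, 5 and 5 of the 6 libraries, left out singly (adjusted p up to 0.0883, 0.12, 0.111 and 0.136). Mcm5, Cdc20 and Plk1 lost their KO calls in 5, 2 and 5 of the other settings (adjusted p up to 0.147).

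In the glycolysis and hypoxia list 8 of 24 tested (25 listed) were called lower and none higher (unadjusted 2, median -0.32). The count of 8 was 4 without KO day 7 replicate 1 and 5 without KO day 9 replicate 3. The glucose transporters Slc2a3 and Slc2a1 changed by -1.01 ± 0.29, adjusted p = 0.0114 and by -0.94 ± 0.17, adjusted p = 0.000314. The aldolase Aldoc changed by -1.28 ± 0.38, adjusted p = 0.015. Of 21 integrated stress response genes tested (22 listed), targets of Atf4 among them, 6 were lower and none higher (unadjusted 0, median -0.64), and 3 were lower without KO day 9 replicate 3. Mthfd2, of mitochondrial folate metabolism, fell from 92.2, 78.3 and 60.8 to 29.7, 31.3 and 28 FPKM (change -1.33 ± 0.28, adjusted p = 0.00132). Asns, asparagine synthetase, had a change of -1.24 ± 0.43, adjusted p = 0.036. Nupr1 and Trib3 had larger estimates with wider errors and were not called (-2.02 ± 0.87, adjusted p = 0.0883 and -1.45 ± 0.65, adjusted p = 0.1). Cholesterol synthesis gave 1 called lower and none higher (unadjusted 0) of 17 tested (19 listed), a lower share than over all genes, and 0 lower without 4 of the 6 libraries, left out singly. No difference from the WT change was called in these 3 lists in the main fit (unadjusted 0 in each). Slc2a3 lost its KO call without KO day 7 replicate 1 (-0.89, adjusted p = 0.0525). Aldoc and Asns lost their KO calls without 3 and 5 of the 6 libraries, left out singly (adjusted p up to 0.0657 and 0.104). Slc2a3 and Asns lost their KO calls in 1 and 2 of the other settings (adjusted p up to 0.0765). Nupr1 gained a KO call with only the libraries compared (-2.02, adjusted p = 0.000248) and after quantile normalization. The difference of Nupr1 from WT was called with only the libraries compared (adjusted p = 0.0483). Trib3 gained a KO call with only the libraries compared (-1.45, adjusted p = 0.0408) and after quantile normalization.

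In the imprinted list 5 were called higher and 4 lower of 20 tested (26 fixed, 25 listed, median 0.19), and 3 of them differed from WT. The list does not hold every imprinted gene: Plagl1 is counted above with the neural progenitor genes. Snrpn, listed together with Snurf at chr7:67127387-67285105 (mm9) in the cluster on chromosome 7 where SmcHD1 is known to act, went from 307, 285 and 218 to 90.4, 104 and 95.1 FPKM (change -1.46 ± 0.13, adjusted p = 3.32e-08). KO libraries were above every WT library at day 7 and below every one at day 9, since WT cells had 191, 175 and 155 and 126, 136 and 135 FPKM (difference -1.07 ± 0.19, adjusted p = 0.00203). Magel2, from the same cluster at chr7:69521865-69526526, fell from 9.92, 8.34 and 9.91 to 2.21, 2.13 and 2.4 FPKM (change -1.68 ± 0.17, adjusted p = 1.97e-07, difference -1.17 ± 0.24, adjusted p = 0.0101). Igf2, the growth factor, rose from 2.19, 2.26 and 1.96 to 13.7, 7.05 and 6.57 (change 1.62 ± 0.21, adjusted p = 3.97e-06), with 2.31, 2.61 and 3.13 and 1.47, 3.02 and 2.56 in WT cells (difference 1.78 ± 0.29, adjusted p = 0.00114). Peg3, Sgce, Ppp1r9a and Cd81 were the others called higher (0.95, 0.94, 0.61 and 0.38). Rian and Phlda2 were the others called lower (-0.99 and -1.29 ± 0.35, adjusted p = 0.00763). Phlda2 lost its KO call without KO day 9 replicate 1 (-0.88, adjusted p = 0.0615). Cd81 lost its KO call without KO day 7 replicate 2 (0.35, adjusted p = 0.0611) and without KO day 9 replicate 2 (0.36, adjusted p = 0.0593). Rian lost its KO call in 1 of the other settings (adjusted p = 0.12). Magel2 and Igf2 lost their called differences in 1 of the other settings each (adjusted p up to 0.257).

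Several of the largest changes lay outside the lists. Among rises, Ly6h, a surface protein of neural cells, went from 3.88, 6.27 and 5.39 to 81, 80.1 and 92.2 FPKM (change 3.81 ± 0.22, adjusted p = 5.21e-11). D930028M14Rik, an unnamed transcript, rose from 0.236, 0 and 0.296 to 14.3, 19.2 and 19.2 (change 3.98 ± 0.2, adjusted p = 7.55e-12). Sst, the neuropeptide somatostatin, rose from 0.835, 0 and 1.05 to 21.3, 14.2 and 12.7 (change 3.42 ± 0.21, adjusted p = 1.43e-10). Vtn, the matrix protein vitronectin, rose from 0.215, 0.269 and 0.134 to 11.4, 14.1 and 11.2 FPKM (change 3.45 ± 0.35, adjusted p = 1.5e-07). Its WT levels were 8.22 ± 6.17 FPKM at day 7 and 57.9 ± 19.2 at day 9. Moxd1, a monooxygenase-like gene, rose by 3.55 in KO and 1.97 in WT cells (difference 1.58 ± 0.38, adjusted p = 0.0287). Falls outside the lists included Gngt2, a G protein subunit, Tcfl5, a bHLH factor, Vgll3, a TEAD cofactor, Vrtn, and the predicted gene Gm5860, with changes of -2.55, -2.39, -2.38, -2.28 and -2.17. Snord17, a small nucleolar RNA inside Snx5, was listed at 4.05, 10.2 and 15.2 FPKM at day 7 and at 0 in the 3 day 9 libraries (change -3.28 ± 1.07, adjusted p = 0.0263). The libraries were made from poly(A) RNA, which holds few transcripts of this kind. Snord17 lost its KO call without 5 of the 6 libraries, left out singly (adjusted p up to 0.089). Moxd1 lost its called difference without 8 of the 12 libraries, left out singly (adjusted p up to 0.105). Moxd1 lost its called difference in 4 of the other settings (adjusted p up to 0.299).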

How the data were processed

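RNA-seq of poly(A) RNA measured expression in WT and KO cells. The authors trimmed reads with Trim Galore 0.6.6, aligned them to mm9 with TopHat2 2.1.1 and deposited FPKM values per gene from Cuffdiff (Cufflinks). Reads of ribosomal RNA and the X were removed. Library normalization, counting by strand and read totals of these libraries are not given in the sources used here. FPKM are not counts, so values were taken as log2(FPKM + 1) and fitted with limma 3.58.1 (R 4.3.3) over all 24 libraries in 8 groups, without covariates, with trend and robust settings. Tests were two-sided, Benjamini-Hochberg adjusted over the 11667 tested genes, and called at an adjusted p under 0.05. The difference between KO and WT changes is the interaction term of the same fit. Genes whose FPKM averaged under 1 in the 6 KO libraries were left out.

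The members and the 24 gene lists were chosen with earlier results of these data known. Named genes are Smchd1, the markers the study used, the 12 largest called rises and falls (mean FPKM of at least 5 on the higher day, no overlap), the 6 largest differences from WT in each direction, and 4 genes of each list. Others, such as Pax3, Nefl, Shh and Snrpn, were chosen after their values were seen. Some genes the rule names are not reported here. Alternatives were other pseudocounts (0.1 and 0.5), filters (none, or 5 FPKM), scalings, a replicate block, only the libraries compared, and single libraries left out, with list counts without each KO library added after seeing the data. The 12 FPKM columns of other samples were not used. The fit was tested on simulated data. Promoters are from RefSeq (GRCm38.p6).

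Depth enters only as relative reads, worked out from low values that were whole multiples of a step within 0.05 for 95.3% of them, and FPKM of genes near a step rest on few reads.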

Additional observations from a re-analysis of the deposited data

Results flagged for a closer look

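The change from day 7 to day 9 differed between KO and WT cells for 212 genes by the limma interaction term, and 71 of them are named in the text. Differences are KO change minus WT change in log2 units, with 3 libraries in each of the 4 groups. Of the 71, 23 were called under every alternative tried, 23 were lost in 1 or 2, and 25 in 3 or more. At an unadjusted p under 0.05 the term held for 1002 genes.

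The dorsal neural tube list held the most of them, 14, each above 0: Rspo3 (4.52), Gsx1 (3.79), Lbx1 (3.21), Msx3 (2.97), Zic1 (2.96), Pax3 (2.77), Pax7 (2.58), Wnt3 (2.32), Rspo1 (1.88), Zic4 (1.42), Wnt8b (1.35), Irx3 (1.27), Gdf10 (1.04) and Bmp6 (1.0). In the neural crest list Tfap2b (2.16), Tfap2a (1.39) and Sox8 (0.95) were above 0. In the Wnt list these were Rspo2 (2.31), Fzd10 (2.6), Sfrp2 (1.6) and Dkk1 (2.38), in the BMP and TGF-beta list Nog (2.12), Chrd (2.12), Fst (1.39) and Bmpr1b (1.0), and in the retinoic acid list Cyp26b1 (1.21). Of all these, Gdf10, Dkk1 and Chrd were not called in KO cells and Fst fell there.

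In the neuron list 9 differences were below 0 and 2 above. Those below were Stmn3 (-1.91), Nefl (-1.78), Nefm (-1.78), Gap43 (-1.75), Elavl3 (-1.73), Lhx5 (-1.67), Crmp1 (-1.17), Snap25 (-1.0) and St18 (-1.0), and those above were Tlx3 (2.44) and Lhx1 (1.83). In the proneural and Notch list Neurod4 (-1.21) and Insm1 (-1.19) were below 0 and Olig3 (1.98) above. Ventral genes with differences below 0 were Spon1 (-4.29), Ntn1 (-2.16), Phox2a (-2.07), Sulf1 (-1.44) and Slit1 (-1.28), and Foxj1 was above 0 (1.86). Midbrain and hindbrain genes split, with En1 (-3.17), Pax2 (-1.64) and Tal2 (-1.63) below 0 and Fgf8 (2.14) and Etv4 (1.59) above 0. Hoxb8 (2.38), Moxd1 (1.58), Plagl1 (1.39) and Ptn (3.16) were above 0, and Cxcl12 (-3.53), Rgs4 (-3.36) and C1ql1 (-2.82) below.

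In the pluripotency and epiblast list Lefty2 (1.63), Lefty1 (1.27), Tdh (1.25) and Tdgf1 (1.22) were above 0. Cer1 of the endoderm list lay at 5.21, T and Acta2 of the mesoderm list at 3.46 and 1.72, and Eomes of the forebrain list at 1.49. The globins Hbb-bh1 and Hba-x lay at -2.87 and -1.99, and the imprinted genes Igf2, Magel2 and Snrpn at 1.78, -1.17 and -1.07.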

How the results depend on the processing

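The count of genes called between KO day 7 and day 9 (3742) stayed within 1.5 times under every alternative run, from 2703 without KO day 9 replicate 3 to 4956. With single libraries left out it ran from 2703 to 3288, and the WT count (3998) from 3075 to 3391. The count of genes whose changes differ between KO and WT (212) was the least stable: it was 63 with a pseudocount of 0.1, 405 with no filter on low values, 80 with a mean FPKM of at least 5, and 339 after quantile normalization. It ran from 137 to 233 with single libraries left out, the lowest without KO day 9 replicate 1. The sets with and without that library shared 134 genes. The count of 80 was among 8637 genes and that of 405 among 16713. The cause of these shifts was not tested. Scaling each library to the same sum shifted the median change by 0.053, to 0.072, in KO and by 0.127, to 0.136, in WT cells and turned the WT split from 2198 higher and 1800 lower to 2907 and 1075. The KO split was 2243 and 1249 with that scaling and 2026 and 2277 after quantile normalization, against 2101 and 1641. Of 184 KO calls among 222 genes followed, 139 held under every alternative, 45 were lost in at least 1 and none changed sign. Of 71 differences 23 held and 48 were lost in at least 1. Read totals limit low values most: a change of a gene under 1 FPKM on 1 day depends on the pseudocount.

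Replicate numbers did not pair the samples: deviations of same-numbered KO libraries of day 7 and day 9 correlated at 0.07, 0.21 and -0.08, and those of WT libraries at 0.06, 0.07 and 0.03, and every WT library but not every KO library correlated best with its own number. With the replicate number as a block the counts were 3751 (KO), 4043 (WT) and 217 (difference), and with only the libraries compared as well 4956, 5012 and 294.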

Other observations

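Small RNA genes gave some of the most extreme values in libraries made from poly(A) RNA and were chosen here after their values were seen. Mir1894 was listed at 0, 198 and 192 FPKM in KO day 7 libraries and 0, 0 and 0 at day 9 (change -5.08, adjusted p = 0.00534). Snora75 was listed at 39.2, 49.7 and 0 and 0, 0 and 0 FPKM (change -3.66, adjusted p = 0.00441). Snord32a was listed at 0, 0 and 0 and 333, 0 and 360.5 FPKM, so its estimate of 5.63, larger than that of Gsx1 (4.18), was not called (adjusted p = 0.194). Each of these genes was at 0 in some libraries of a group and far above 0 in its partners.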
